A study of Mus musculus with 10 samples.

Results

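A set of 10 genes of MHC class I antigen presentation was followed through the neuroretina after intravitreal injection of carbon nitride nanoparticles: B2m, H2-K1, H2-D1, H2-Q4, H2-T23, Tap1, Tap2, Tapbp, Psmb8 and Psmb9. They were taken by name, as the rows of the count table whose Ensembl identifier carries 1 of these symbols, and they make up 10 of 57186 rows. The nanoparticle group (CNP, 5 libraries, numbered 4, 8, 12, 16 and 20) came from female C57BL6/JRj mice given 1 µL of hg-C3N4 at 1 mg/mL in PBS. The control group (PBS, 5 libraries, numbered 2, 6, 10, 14 and 18) came from mice of the same sex and strain given PBS. Both groups therefore share the injection itself, and retinas were taken 14 days after it. No transgene or other allele is named for either group, and the sources used here do not state the animals' age. The design text counts 5 CNP mice but 5 PBS eyes, so it does not fully say that each library is a separate animal, and p-values measure the spread between these libraries.

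MHC class I molecules display peptides from inside the cell to CD8 T cells and natural killer cells. A heavy chain, here from the H2 genes, pairs with beta-2 microglobulin (B2m). Peptides are made by the proteasome, whose immunoproteasome form carries Psmb8 and Psmb9, are pumped into the endoplasmic reticulum by the Tap1 and Tap2 transporter, and are loaded with the help of tapasin (Tapbp). Interferons, NF-kappa B and the transactivator Nlrc5 are known to drive these genes, and the healthy neural retina is known as a tissue of low class I expression.

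The promoters are shown first, because the genes were compared for moving together and share known control elements. Promoters of 9 of the 10 genes were matched in RefSeq (build GRCm38.p6); Tap2 was not matched. Each sequence runs 5′ to 3′ on the strand of the gene and ends 1 base before the start of transcription. Capitals mark exact matches, on either strand, to the motifs spelled out after them. The first 3 are heavy chains, followed by B2m and by the whole stretch between the starts of Tap1 and Psmb9.
H2-K1 promoter, chr17:34000348-34000522, minus strand: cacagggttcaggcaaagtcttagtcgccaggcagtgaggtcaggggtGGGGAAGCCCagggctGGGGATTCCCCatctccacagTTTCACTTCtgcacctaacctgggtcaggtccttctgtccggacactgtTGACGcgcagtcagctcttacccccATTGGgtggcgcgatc
H2-D1 promoter, chr17:35262919-35263093, plus strand: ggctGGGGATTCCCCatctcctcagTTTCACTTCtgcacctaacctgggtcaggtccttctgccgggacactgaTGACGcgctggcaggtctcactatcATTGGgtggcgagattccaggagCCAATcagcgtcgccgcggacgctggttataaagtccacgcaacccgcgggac
H2-Q4 promoter, chr17:35379442-35379616, plus strand: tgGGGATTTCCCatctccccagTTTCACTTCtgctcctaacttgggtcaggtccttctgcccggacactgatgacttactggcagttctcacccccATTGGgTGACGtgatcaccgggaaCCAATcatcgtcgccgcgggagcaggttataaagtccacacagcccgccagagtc
B2m promoter, chr2:122147512-122147686, plus strand: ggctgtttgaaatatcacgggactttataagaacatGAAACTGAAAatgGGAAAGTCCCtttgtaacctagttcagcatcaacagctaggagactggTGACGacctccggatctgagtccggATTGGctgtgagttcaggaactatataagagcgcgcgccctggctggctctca
Tap1 to Psmb9 stretch, chr17:34187331-34187555, plus strand: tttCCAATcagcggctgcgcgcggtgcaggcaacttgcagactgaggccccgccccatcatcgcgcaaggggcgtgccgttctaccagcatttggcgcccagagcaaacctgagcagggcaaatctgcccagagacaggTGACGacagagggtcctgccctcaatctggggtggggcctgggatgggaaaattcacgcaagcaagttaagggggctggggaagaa
H2-K1 has 2 annotated starts, and the more upstream was used.

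In the stretches shown, and in the full 250 bases before each start that were searched, the 3 heavy chains held a kappa B match, then TTTCACTTC, then TGACG and ATTGG, with the last 2 in the opposite order in H2-Q4. The kappa B motif was searched in a first form (GGG, any 2 bases, T, any base, CCC) and a second form (GGGA, any base, T, any 2 bases, CC), which overlap each other in the GGGGATTCCCC of H2-K1 and H2-D1. Either form was found in 4 of 9 promoters (H2-K1, H2-D1, H2-Q4 and B2m), against 6.7% of 32851 promoters of the same length. TTTCACTTC is the reverse complement of a short interferon element searched as GAANTGAAA, a motif added after the sequences had been seen. It was found in the same 3 heavy chains and in 1.5% of all promoters. The longer interferon stimulated response element (GAAA, any 2 bases, GAAA) was found in B2m and H2-T23 (2 of 9 promoters, 2.98% of all), and the gamma-activated site TTCNNNGAA in Psmb8 (1 of 9, 7.02% of all). The Y box core CCAAT was found in 8 of 9 promoters (33.8% of all) and the X2 box core TGACG in 6 of 9 (17.8% of all). A match is a string of letters and not evidence of binding. By local alignment of the 250 bases, H2-K1 and H2-D1 were identical at 161 of 177 aligned positions (91.0%) and H2-D1 and H2-Q4 at 200 of 246 (81.3%). Matches shared by these heavy chain promoters therefore lie in sequence that is itself largely shared. Tap1 and Psmb9 start 225 bases apart, facing away from each other, so 1 stretch serves as the upstream sequence of both. Its single CCAAT and single TGACG were thus counted for both genes in the numbers of promoters above. Of the members, 9 lie on chromosome 17 and B2m on chromosome 2, and in RefSeq's order Psmb9, Tap1, Psmb8 and Tap2 are 4 neighbouring protein-coding genes.

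**Figure D1:**
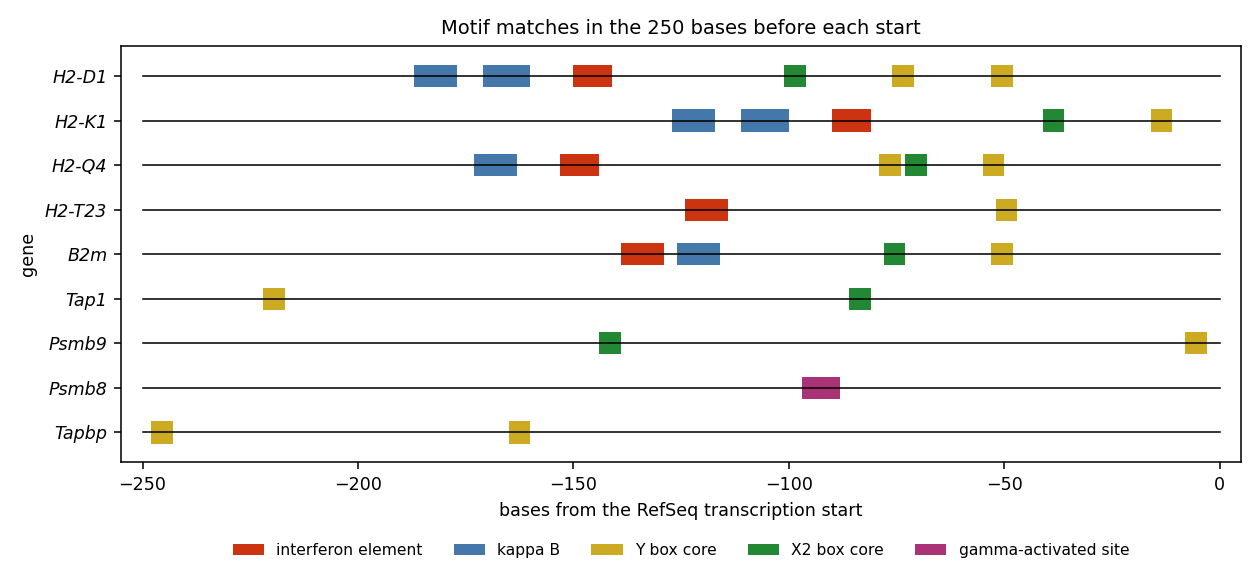
Positions of motif matches in the 9 matched promoters, plotted as distance in bases before the start of transcription (x axis), 1 row per gene, with 1 colour per kind of motif (long and short interferon elements share 1). The kappa B and interferon matches of H2-D1 and H2-Q4 lie within a few bases of each other, those of H2-K1 lie nearer its start, and CCAAT is present in 8 of 9 rows.

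Deposited totals ran from 3328518 counts (PBS 18) to 5428697 (PBS 2), so 3 counts, the limit that a count of 0 allows, correspond to between 0.503 and 0.972 CPM (counts relative to the scaled library total) in 1 library. The label of neuroretina was set against rod photoreceptor markers, whose summed level ran from 53877 to 99633 CPM, with cone, bipolar and ganglion cell markers present in every library. Lens crystallins and other lens markers ranged from 306 to 13048 CPM and pigment epithelium markers from 279 to 1443 CPM. Whether neighbouring tissue was carried along unevenly was not tested. After a filter on low counts 11499 genes were tested by edgeR's quasi-likelihood test. It called 0 of them (0% of genes tested) at an adjusted p under 0.05, and DESeq2 and limma-voom also called 0. An unadjusted p under 0.05 was found for 137 genes (1.19%, with 0.583% higher in CNP and 0.609% lower). That is below the share of 0.05 that no difference would give on average, and why was not tested.

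Within the class I set, abundance spanned a wide range. Per kilobase of the longest annotated coding transcript (GENCODE M21), Tapbp stood at 65.5 CPM per kb (mean of 10 libraries), H2-D1 at 50.1, B2m at 33.7 and H2-K1 at 21.1. The peptide supply genes were lower, with Psmb8 at 5.58 CPM per kb, Tap2 at 3.49, Psmb9 at 1.73 and Tap1 at 1.07. The non-classical heavy chains closed the order, H2-T23 at 0.435 CPM per kb and H2-Q4 at 0.164. Library by library, each gene exceeded the next in 10 of 10 libraries, except that Psmb9 exceeded Tap1 in 8 and H2-T23 exceeded H2-Q4 in 9. The ranges over libraries of neighbouring genes overlapped for every pair but H2-K1 and Psmb8, where H2-K1 never fell below 13.8 and Psmb8 never exceeded 8.44 CPM per kb. This order assumes reads spread along the transcript. The labels name barcoded primers but do not say whether reads were counted from whole transcripts or from 1 end. Under counting from 1 end a division by length would not apply. Without that division, H2-K1 (mean 34.3 CPM in PBS and 33.9 in CNP) stood above B2m (28.7 and 29.3). Likewise Tap2 (12.3 and 11.7) stood above Psmb8 (8.77 and 9.40), and Tap1 (3.48 and 2.85) above Psmb9 (2.03 and 2.64).

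Of the 10 genes, 7 passed the filter on low counts (B2m, H2-K1, H2-D1, Tap1, Tap2, Tapbp and Psmb8) and H2-Q4, H2-T23 and Psmb9 did not. None of the 7 passed the test of CNP against PBS: each had an adjusted p of 0.9997 over all genes tested by edgeR's quasi-likelihood test. The fitted log2 fold change of CNP over PBS was above 0 in 2 of the 7 and below 0 in 5, with a median of -0.03. Across all genes tested, 51.2% were below 0 and the median was -0.0036. The CPM values of the CNP and PBS libraries overlapped for all 10 members, while 33 of the 11499 genes tested (0.287%) had groups that did not overlap. In whole tissue, fewer cells of a type and less RNA per cell cannot be told apart, and this holds for each value that follows.

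**Figure D2:**
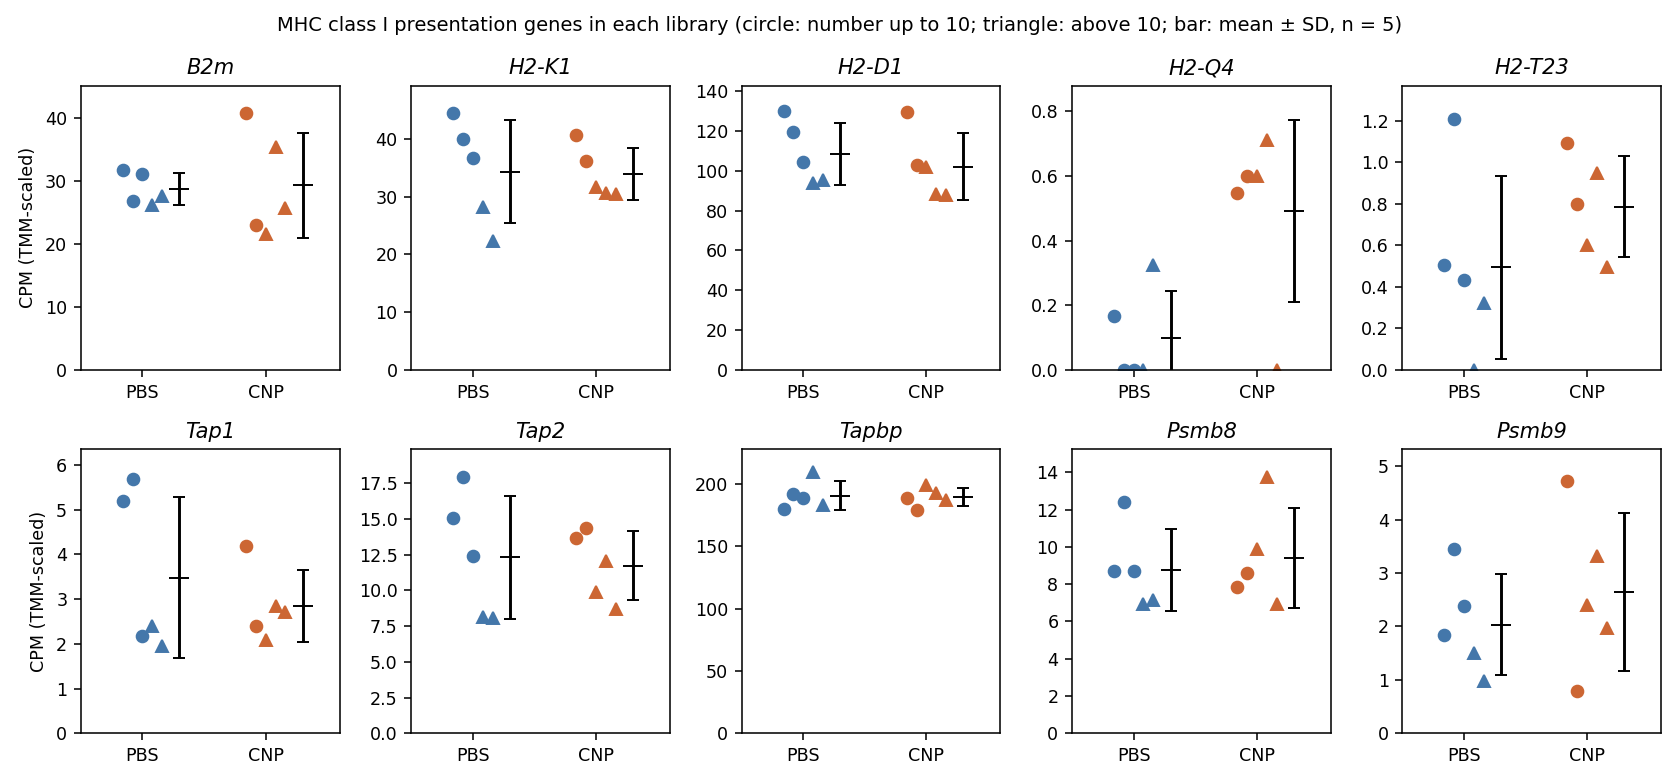
CPM of each of the 10 members (y axes, linear scale, TMM-scaled) in the 5 PBS and 5 CNP libraries, 1 point per library (circles numbered up to 10, triangles above 10), with bars for the group mean ± SD. The groups overlap in every panel, from Tapbp near 190.5 CPM to H2-Q4 at or below 0.711 CPM.

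H2-K1 and H2-D1 encode the classical heavy chains, which present peptide to CD8 T cells. H2-K1 stood at 44.4, 40.0, 36.7, 28.3 and 22.4 CPM in PBS libraries 2, 6, 10, 14 and 18, and at 40.7, 36.2, 31.8, 30.6 and 30.4 CPM in CNP libraries 4, 8, 12, 16 and 20. Its highest and lowest values both belonged to PBS libraries, and all 5 CNP values lay between them. The group means were 34.3 ± 8.94 CPM for PBS and 33.9 ± 4.46 CPM for CNP (SD, n = 5 each), a log2 fold change of -0.03 (SE 0.17, 95% interval -0.40 to 0.34). H2-D1, the member heavy chain with the highest level per kilobase, stood at 129.8, 119, 104, 93.8 and 95.6 CPM in PBS and at 129, 103, 102, 88.2 and 87.9 CPM in CNP, in the same library order. Here too the PBS and CNP values interleaved, with PBS 2 and CNP 4 highest. The means were 108.6 ± 15.5 and 102 ± 16.9 CPM, a log2 fold change of -0.09 (SE 0.13, 95% interval -0.37 to 0.19). Part of the heavy chain sequence is shared between genes: of all 75-base windows of its transcript, H2-D1 shared 6.90% with another gene (most with H2-Q1) and H2-K1 1.55% (with H2-D1). The sources used here do not state how reads matching several genes were treated or where along the transcript reads fell, so how far these levels are affected was not tested.

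H2-Q4 and H2-T23 are non-classical heavy chains, and H2-T23 encodes Qa-1, a ligand through which natural killer cells can be restrained. H2-Q4 was barely detected: its counts were 1, 0, 0, 0 and 1 in the PBS libraries and 3, 3, 2, 3 and 0 in the CNP libraries. Thus 4 CNP libraries had 2 or 3 counts, CNP 20 had 0, and no PBS library had more than 1. Pooled, that was 2 counts in PBS against 11 in CNP, a ratio per scaled total of 5.67 (exact 95% interval 1.24 to 52.7, counting error only). The exact two-sided permutation test over libraries gave p = 0.0476 and, adjusted over the 3 genes below the filter, 0.143. H2-Q4 shared 7.91% of its windows with other genes (most with Gm43321), so even these few counts are uncertain in origin. H2-T23 had 3, 7, 2, 0 and 1 counts in PBS and 6, 4, 2, 4 and 2 in CNP. The group totals were 13 and 18 counts, a ratio of 1.43 (exact 95% interval 0.661 to 3.17, exact permutation p = 0.230, adjusted 0.345). A difference was not detectable at this depth, and 13.1% of its windows were shared, most with Gm7030.

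B2m encodes the light chain that every class I heavy chain needs to reach the cell surface. Its level was 31.7, 26.9, 31.0, 26.2 and 27.5 CPM in PBS libraries 2, 6, 10, 14 and 18, and 40.7, 22.99, 21.6, 35.3 and 25.7 CPM in CNP libraries 4, 8, 12, 16 and 20. CNP libraries thus held both the highest values (CNP 4 and CNP 16) and the lowest (CNP 8 and CNP 12), on either side of the PBS values. The means were 28.7 ± 2.53 and 29.3 ± 8.36 CPM (SD, n = 5 each), with a log2 fold change of 0.03 (SE 0.17, 95% interval -0.34 to 0.40), which was -0.11 without CNP 4 and -0.04 without CNP 16. The difference in spread was not tested. CNP 4 and CNP 16 also had the highest summed microglial markers (278 and 288 CPM, against 178 to 255 in the other libraries). The same held for summed endothelial markers (168 and 154 CPM, against 102 to 151). It was not particular to these cell types. Summed ganglion cell markers were also highest there (2088 and 1818 CPM, next PBS 2 at 1770). So were bipolar cell markers (1470 and 1522 CPM, next PBS 2 at 1443) and pericyte and smooth muscle markers (66.0 and 62.1 CPM, next CNP 12 at 59.9). The part of any cell type in the B2m values was not tested.

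Tap1 and Tap2 form the peptide pump, and Tapbp (tapasin) bridges it to the waiting heavy chain. Tap1 stood at 5.20, 5.68, 2.17, 2.41 and 1.94 CPM in PBS and at 4.18, 2.40, 2.10, 2.84 and 2.72 CPM in CNP. PBS 2 and PBS 6 were highest and PBS 18 lowest, and the CNP libraries lay between. From 3.48 ± 1.81 to 2.85 ± 0.800 CPM, the fitted log2 fold change was -0.35 (SE 0.34, 95% interval -1.07 to 0.38), the widest interval of the 7. It was -0.095 without PBS 6 and -0.16 without PBS 2, and -0.53 without CNP 4. Tap2 stood at 15.1, 17.9, 12.4, 8.12 and 8.10 CPM in PBS and at 13.6, 14.4, 9.89, 12.1 and 8.66 CPM in CNP. PBS 6 was highest, PBS 18 and PBS 14 were lowest, and the CNP libraries lay within that span. Its means were 12.3 ± 4.31 and 11.7 ± 2.43 CPM (log2 fold change -0.10, SE 0.23, 95% interval -0.60 to 0.41). Tapbp varied least: it stood at 179.6, 192, 189, 209 and 183 CPM in PBS and at 189, 179, 199, 192 and 187 CPM in CNP. PBS 14 was highest and CNP 8 lowest, and the groups overlapped, with means of 190.5 ± 11.5 and 189 ± 7.47 CPM. The log2 fold change of Tapbp was -0.0094 (SE 0.081, 95% interval -0.19 to 0.17), the narrowest interval of the 7.

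Psmb8 and Psmb9 are catalytic subunits that replace Psmb5 and Psmb6 when the immunoproteasome is assembled. Psmb8 stood at 8.72, 12.4, 8.68, 6.92 and 7.13 CPM in PBS and at 7.82, 8.60, 9.89, 13.7 and 6.93 CPM in CNP. Each group had 1 library above the rest, PBS 6 and CNP 16. The means were 8.77 ± 2.20 and 9.40 ± 2.66 CPM, and the log2 fold change was 0.07 (SE 0.22, 95% interval -0.41 to 0.54). Without CNP 16 it was -0.11. Psmb9 gave 11, 20, 11, 5 and 3 counts in PBS and 26, 4, 8, 14 and 8 in CNP, which is 0.972 to 3.45 CPM and 0.800 to 4.73 CPM. CNP 4 was highest and CNP 8 lowest. The ratio of CNP over PBS was 1.24 (exact 95% interval 0.836 to 1.84, counting error only), and the exact permutation test gave p = 0.468 (adjusted 0.468).

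**Figure D3:**
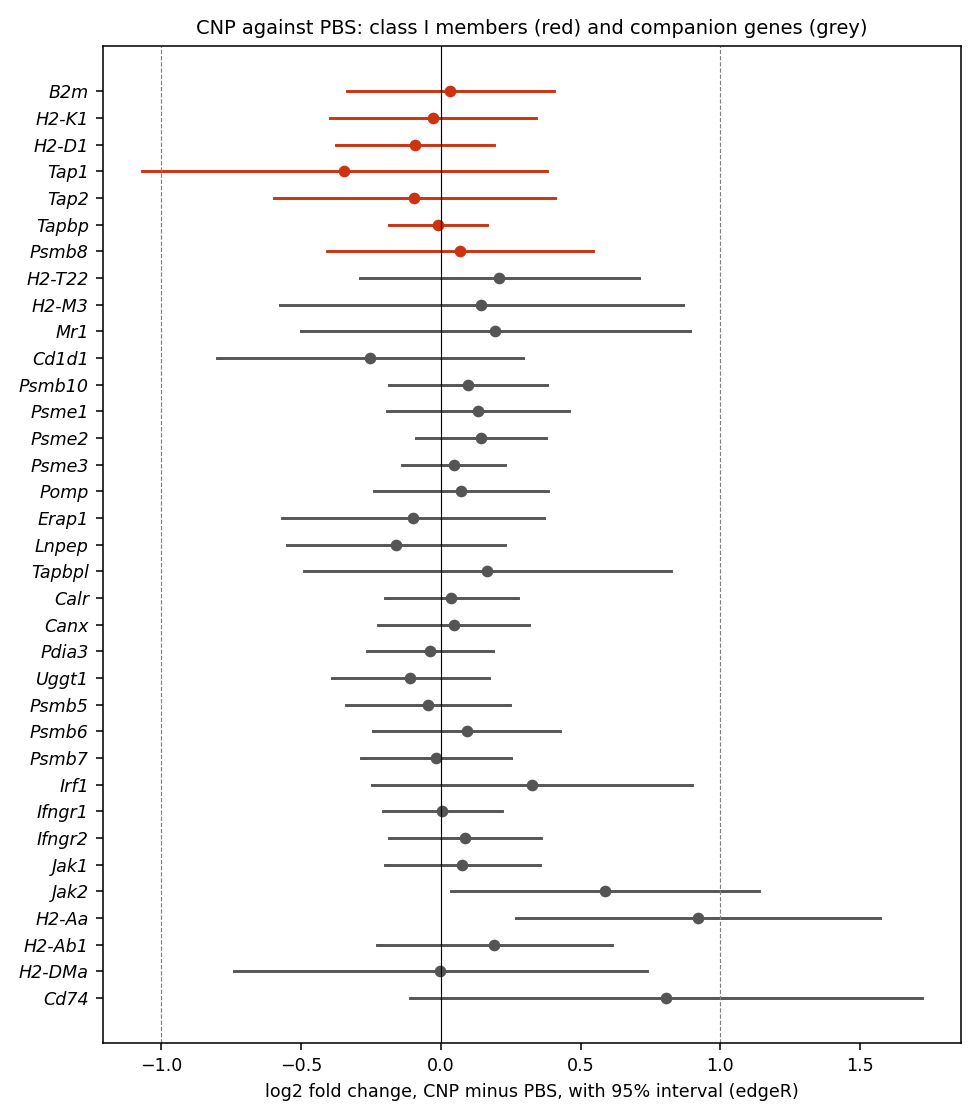
Fitted log2 fold change of CNP over PBS (x axis) with 95% intervals for the 7 tested members and for companion, control and class II genes, 1 row per gene, from edgeR's quasi-likelihood fit over 5 and 5 libraries, with dashed lines at a 2-fold change. The intervals of all 7 members include 0, from Tap1 at -0.35 to Psmb8 at 0.07, while those of Jak2 (0.59) and H2-Aa (0.92) do not, before adjustment.

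Ratios between partner genes, computed after the values above had been seen, did not pass a test either. Per kilobase, Psmb8 stood at 9.06 ± 3.92% of Psmb5 in the PBS libraries and 9.40 ± 1.52% in the CNP libraries (mean ± SD of 5 libraries; exact permutation p = 0.889), and Psmb9 at 0.214 ± 0.122% and 0.246 ± 0.150% of Psmb6 (exact permutation p = 0.714). Psmb10, the third catalytic subunit of the immunoproteasome, reached 41.7 ± 1.84% of Psmb7 in PBS and 45.7 ± 6.51% in CNP (exact permutation p = 0.238). The denominators differ in level: in PBS, Psmb6 had a mean of 597.6 CPM, Psmb5 56.7 and Psmb7 54.5. Counts of Psmb9 ran from 3 to 26 per library. The percentages are therefore not comparable between pairs, and they assume reads spread along the transcript. The ratio of H2-K1 to H2-D1 was 40.6 ± 6.23% and 43.4 ± 2.51%, and that of B2m to H2-K1 and H2-D1 together was 46.5 ± 6.46% and 49.2 ± 12.8% (exact permutation p = 0.429 and 0.714). Tap1 stood at 32.0 ± 7.86% and 28.8 ± 7.35% of Tap2 (exact permutation p = 0.492). Over these 6 ratios the adjusted p was 0.857 or higher.

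A larger split ran across both groups. In the 5 libraries numbered up to 10 (PBS 2, 6 and 10, CNP 4 and 8) H2-K1 ranged from 36.2 to 44.4 CPM, and in the 5 numbered above 10 (PBS 14 and 18, CNP 12, 16 and 20) from 22.4 to 31.8 CPM. H2-D1 ranged from 103 to 129.8 CPM in the first set and from 87.9 to 102 in the second, and Tap2 from 12.4 to 17.9 and from 8.10 to 12.1. These 3 of the 7 tested members did not overlap between the sets, all 3 with the higher level in libraries numbered up to 10. Among all genes tested, 20.6% did not overlap between the sets and 10.7% did so with the higher level up to 10. Whether or not the sets overlapped, the mean CPM was higher up to 10 in 6 of the 7 members, all but Tapbp, and in 52.5% of all genes tested. Under DESeq2 size factors the sets of H2-D1 overlapped, those of H2-K1 and Tap2 did not, and the difference in mean log2 CPM (up to 10 minus above 10) was 0.44 for H2-K1, 0.30 for H2-D1 and 0.61 for Tap2. With TMM these differences were 0.47, 0.32 and 0.63, beside a median of 0.03 over all genes tested. Scaling by library totals alone moved that median to 0.22, and Tapbp then also had its higher level up to 10.

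The labels give the library number but do not call it a batch. Several measures moved with it. Totals were 4325794 to 5428697 counts up to 10 and 3328518 to 4337612 above 10. Summed rod markers were 53877 to 63350.2 and 72237.5 to 99633 CPM, and summed pigment epithelium markers 279 to 741 and 820 to 1443 CPM, so both were higher in libraries numbered above 10. Summed Mueller glia markers were 4428 to 5261 and 3576 to 4851 CPM, and endothelial markers 140 to 168 and 102 to 154 CPM. The part of these measures in the levels of H2-K1, H2-D1 and Tap2 was not tested. Each set holds libraries of both groups, and with the library set as a covariate in edgeR the fitted log2 fold change of CNP over PBS was 0.085 for H2-K1 and 0.054 for Tap2, with no adjusted p under 0.05.

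**Figure D4:**
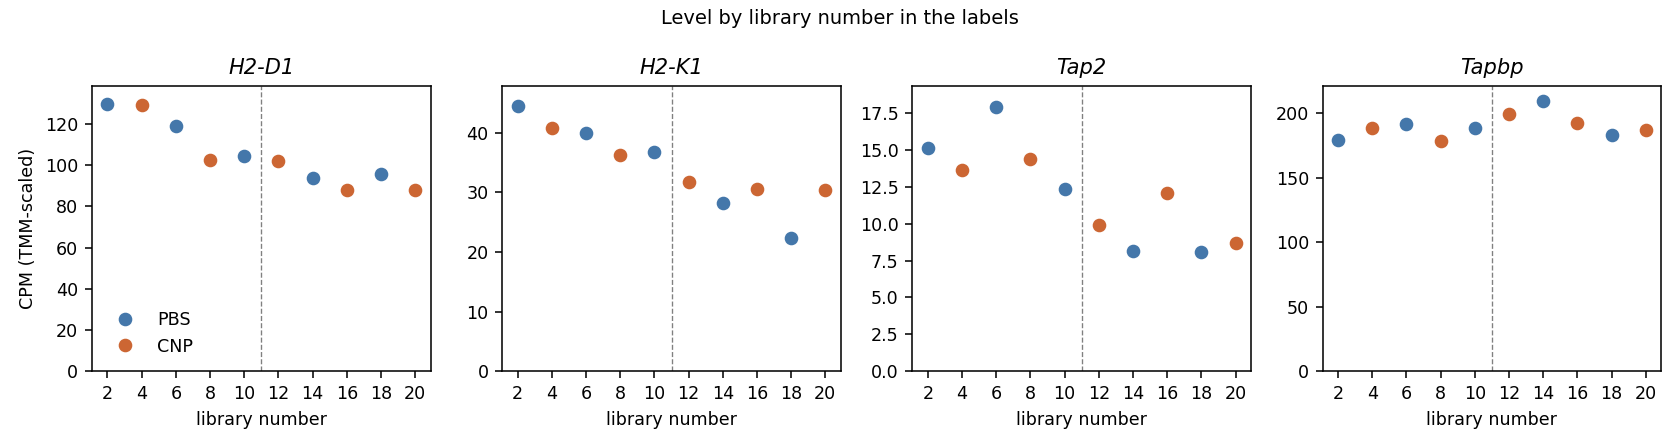
CPM of H2-D1, H2-K1, Tap2 and Tapbp (y axes, linear scale) by library number in the labels (x axis), 1 point per library, coloured by PBS or CNP, with a dashed line between numbers up to 10 and above 10. H2-K1, H2-D1 and Tap2 do not overlap across the line (for H2-K1, 36.2 to 44.4 against 22.4 to 31.8 CPM; H2-D1 does under DESeq2 size factors), Tapbp does, and both colours occur on each side.

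Some of the tested members varied together from library to library. Of their 21 pairs, 6 had a Pearson r of at least 0.6 over the 10 libraries (log2 CPM), against 11.1% of all pairs of genes tested, and the median r was 0.32, against 9.9e-05 for all pairs. H2-K1 and Tap2 were the closest, with r = 0.86 (permutation p = 0.00133, adjusted 0.0279) and Spearman rho = 0.90 (permutation p = 0.00085, adjusted 0.0120), and r = 0.87 without the 2 libraries farthest from the median of H2-K1. H2-K1 and H2-D1 had r = 0.80 (permutation p = 0.00507, adjusted 0.0532) and rho = 0.89 (permutation p = 0.00114, adjusted 0.0120), and r = 0.90 without the 2 farthest libraries. The other 4 pairs, among H2-K1, H2-D1, Tap1 and Tap2, had r of 0.72 to 0.75 with adjusted p from 0.0616 to 0.0749. Tapbp stood apart from this cluster of 4 genes, with a median r of -0.24 with the other members, and B2m had r from -0.15 to 0.43 with them.

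The division by library number bears on these values, because libraries fall into the sets described above. Taken as deviations from the mean of each set, H2-K1 and Tap2 had r = 0.50, H2-K1 and H2-D1 0.37, and H2-D1 and Tap2 0.11. The reverse held for Tap2 and Psmb8, whose r was 0.59 over all libraries and 0.92 within sets. Deviations from the PBS and CNP means left H2-K1 and Tap2 at r = 0.86 and the median of all 21 pairs at 0.32. The number of pairs with an adjusted p under 0.05 was 1, and it was 0 without PBS 2, CNP 4, CNP 8 or PBS 14 and 2 without PBS 10 or PBS 18.

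**Figure D5:**
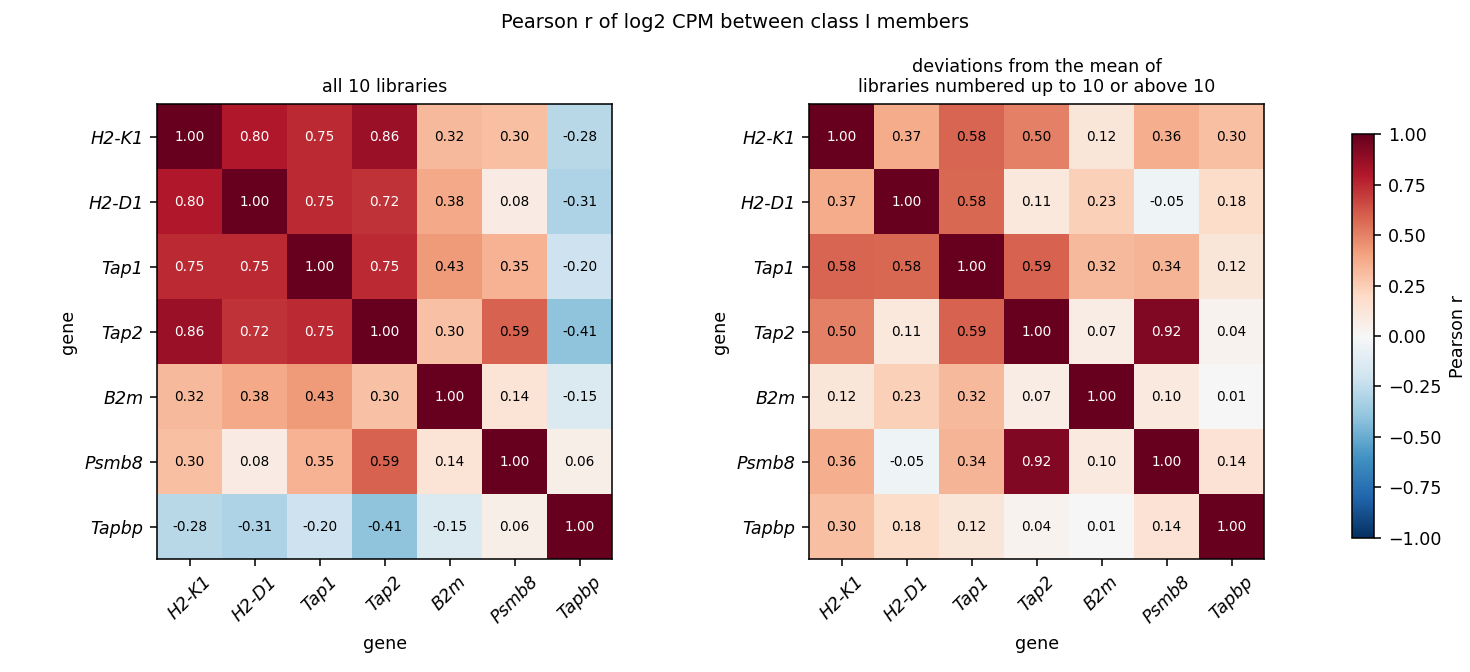
Pearson r over 10 libraries for the 21 pairs of tested members (colour scale), for log2 CPM and for deviations from the means of the sets of library number. H2-K1, H2-D1, Tap1 and Tap2 form a block with r from 0.72 to 0.86 that is paler for the deviations, and Tapbp has values near or below 0 with the others for log2 CPM.

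How far libraries differed beyond counting also varied by gene. The coefficient of variation over the 10 libraries was 14.9% for H2-D1, where counting alone gives 4.72%, 19.5% against 8.29% for H2-K1, 20.1% against 9.003% for B2m and 27.6% against 14.0% for Tap2. Tapbp, at 4.84% against 3.52%, was close to counting error. H2-T23 (57.9% against 60.6%) and H2-Q4 (100.3% against 89.3%) had so few counts that their spread was about that of counting. Tap1 had 42.9% against 27.2%, Psmb8 25.6% against 16.1% and Psmb9 51.8% against 31.7%.

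Each tested member was set beside the summed markers of microglia, vascular endothelium and Mueller glia and the summed interferon stimulated genes, also after values had been seen. Here 0 of 28 correlations had an adjusted p under 0.05, and 13 had an unadjusted permutation p under 0.05. The share of all genes tested with such an unadjusted p is not available here. The 13 can therefore not be called particular to the members. Over all genes tested the median r with these 4 sums was 0.01 to 0.03. The largest r were those of Tap2 with Mueller glia markers (r = 0.86, rho = 0.82, permutation p = 0.00221, adjusted 0.0619) and Tap2 with endothelial markers (r = 0.83, rho = 0.66, permutation p = 0.00466, adjusted 0.0652). H2-D1 and the summed interferon stimulated genes had r = 0.78 (rho = 0.70, permutation p = 0.00874, adjusted 0.0816). For B2m, r was 0.70 with endothelial markers (rho = 0.81, permutation p = 0.0237, adjusted 0.0880) and 0.68 with microglial markers (rho = 0.65, permutation p = 0.0325, adjusted 0.0923). Without the 2 farthest libraries these 5 values of r were 0.77, 0.70, 0.70, 0.79 and 0.65, and within the sets of library number they were 0.70, 0.57, 0.71, 0.74 and 0.64. Others of similar size were smaller within the sets: with Mueller glia markers H2-D1 had r = 0.74 over all libraries and 0.42 within sets, and H2-K1 0.72 and 0.34. With endothelial markers H2-K1 had 0.70 and 0.21, and H2-D1 0.64 and 0.13. Over all libraries the rho of these 4 was 0.79, 0.85, 0.71 and 0.60, and the adjusted permutation p of r was 0.0880 for the first 3 and 0.104 for the last. Markers of T, B and natural killer cells, which read class I molecules, were close to absent. Their sum was 0 to 1.01 CPM in PBS and 0.711 to 1.49 CPM in CNP, and 4 of the 11 (Cd3e, Cd8b1, Ms4a1 and Klrb1c) had no count in any library.

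Among the genes whose pattern over the 10 libraries was most like the mean of the 7 tested members (as z-scores of log2 CPM), out of 7572 genes with a mean of at least 10 CPM, were Pdxp (r = 0.94), Prpf19 (0.94), Cavin3 (0.92) and Golga2 (0.92). Only 15 genes (0.198%) reached 0.9, and the median was -0.05. Of the members themselves Tap1 (r = 0.86), Tap2 (0.86), H2-K1 (0.85) and H2-D1 (0.78) had the highest r with that mean and Tapbp (-0.06) the lowest. Each member is itself part of the mean, which raises its r, so these values are not comparable with those of other genes.

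Other genes of the pathway were read from the same fit, and none had an adjusted p under 0.05. Of 12 companions in peptide supply and loading, all were tested, and 8 had a fold change above 0 and 4 below (median 0.05). The proteasome activator subunits Psme1 and Psme2 had log2 fold changes of 0.13 and 0.14 and Psmb10 of 0.10. Erap1, which trims peptides in the endoplasmic reticulum, had -0.10, the tapasin relative Tapbpl 0.17, and the chaperones Calr, Canx and Pdia3 had 0.04, 0.05 and -0.04. The constitutive subunits Psmb5, Psmb6 and Psmb7 had -0.05, 0.09 and -0.02.

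Of 17 other class I heavy chains in the table, 4 were tested, with log2 fold changes of 0.21 for H2-T22, 0.15 for H2-M3, 0.20 for Mr1 and -0.25 for Cd1d1. No count was found in any library for 7 of them: H2-K2, H2-Q1, H2-Q6, H2-T3, H2-M5, H2-M9 and H2-M10.1. H2-Q1 shares 110 windows of 75 bases with H2-D1, and how reads matching several genes were treated is not stated. A count of 0 for such a gene is therefore not proof of absence. Among 18 genes that control class I transcription, 16 were tested and 8 lay on each side of 0 (median -0.0091). Nlrc5, the class I transactivator, had no count in any library, so that over the pooled libraries a level of at most 0.0668 CPM is allowed. Irf1, a factor that binds interferon elements, had a log2 fold change of 0.33 (SE 0.26). The interferon gamma receptor genes Ifngr1 and Ifngr2 had 0.0052 and 0.09, and Jak1 0.08. Jak2, chosen after its value was seen, was the 1 gene of this list with an unadjusted p under 0.05 (log2 fold change 0.59, SE 0.25, adjusted p 0.9997). Stat2, also chosen after its value was seen, was the lowest of the list (log2 fold change -0.49, SE 0.24). Of 26 interferon stimulated genes 17 were tested, with 3 above and 14 below 0 and a median of -0.17. Among all genes tested 51.2% were below 0, and 0 of these 17 had an unadjusted p under 0.05. Examples are Ifit3 at -0.24, Ifitm3 at -0.16, Ifi27 at 0.10 and Psme1 at 0.13, and Mx1 had no count.

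Class II genes present extracellular peptides to CD4 T cells, and 4 of the 7 in the list were tested. H2-Aa stood at 1.84, 2.76, 1.09, 1.20 and 1.94 CPM in PBS and at 4.55, 2.20, 3.60, 4.27 and 2.72 CPM in CNP. The groups overlapped, with CNP 8 and CNP 20 below PBS 6. Its log2 fold change was 0.92 (SE 0.30, 95% interval 0.27 to 1.57, adjusted p 0.9997). The invariant chain Cd74 had 0.81 (SE 0.42), H2-Ab1 0.19 and H2-DMa -0.0014, and H2-Eb1 and H2-DMb1 were below the filter. Ciita, the class II transactivator, had no count. The median of the 4 was 0.50. Summed monocyte and macrophage markers were 5.34 to 9.63 CPM in PBS and 8.20 to 20.4 CPM in CNP, with Cd163 at 0, and microglial markers 192.5 to 255 and 178 to 288 CPM. Their part in the class II values was not tested.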

How the data were processed

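Polyadenylated RNA of 10 neuroretinas was reverse transcribed with barcoded primers that carry unique molecular identifiers, amplified and sequenced, per the labels' protocols. STAR, STARsolo and build GRCm39 are named in the submitters' processing notes, and the sources used here do not state versions, annotation release, use of strand or collapse of molecular identifiers. Without collapse the counts would include copies made in amplification. Exact intervals of count ratios and limits for counts of 0 cover counting error only, while edgeR's intervals include the spread between libraries. The authors deposited raw whole-number counts per Ensembl gene in 1 table, with no further normalization. All 20 within-group pairs of libraries differed by more than counting noise (chi-square per degree of freedom 3.99 to 32.6, genes with at least 10 counts).

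Counts were filtered with edgeR's filterByExpr (minimum count 10, minimum total 15), scaled by TMM and tested with the quasi-likelihood test of edgeR 4.0.16 (R 4.3.3, two-sided). Adjustment was by Benjamini-Hochberg over all genes tested, at a threshold of 0.05. CPM values are TMM-scaled, with a prior count of 2 for log2 CPM. Alternatives were DESeq2 1.42.0, limma-voom (limma 3.58.1), other scalings, filters and covariates, and leaving out each library. Members below the filter and the ratios were compared by exact permutation of libraries, and correlations were tested with 100000 permutations, two-sided. Simulated data were used to test the scripts. Symbols came from a table of Ensembl identifiers. Promoters (250 bases) came from RefSeq on GRCm38.p6, a different build from that of the counts, so no gene coordinates are given for the counts.

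The members and the gene lists were chosen with earlier results of these data known. The text names all 10 members, from each other list the genes with the highest mean CPM (up to 4) and set genes of the pathway, and the genes most like the members' mean (the first 5 by r). Of the genes so chosen, 2 are not reported here. Ratios, correlations with markers, the tests of the 3 members below the filter, the short interferon element and deviations from the sets of library number were added after values had been seen.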

Additional observations from a re-analysis of the deposited data

Results flagged for a closer look

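In 58 groups of 5 libraries that were examined for a single library far from the others, 1 stood out, where chance alone gives about 1 in 20. It was H2-Q4 in the CNP group: CNP 20 had 0 CPM, while the other 4 CNP libraries had 0.546 to 0.711 CPM. Those values rest on 2 or 3 counts each, and a count of 0 in CNP 20 allows up to 0.743 CPM, which is above all 4.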

How the results depend on the processing

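No paired analysis was possible because the PBS and CNP libraries share no replicate number in the labels. The number of genes called between CNP and PBS was 0 under every alternative run. Genes with an unadjusted p under 0.05 numbered 137 in the main fit. They numbered 272 with the set of library number as a covariate and 105 with library totals as the only scaling. The median log2 fold change of the 7 tested members moved by less than their spread. It was 0.054 with the set of library number as a covariate and ran from -0.13 to 0.0093 over the fits that left out 1 library. Of 133 alternative values of single members, 119 kept their sign, 14 changed it and 0 passed the threshold (smallest adjusted p 0.941). The sign changed with the log2 total as a covariate for H2-K1 (0.014), and with the library set as a covariate for H2-K1 (0.085) and Tap2 (0.054). Leaving out 1 library gave log2 fold changes from -0.11 to 0.12 for B2m, -0.14 to 0.081 for H2-K1, -0.21 to 0.080 for Tap2, -0.032 to 0.027 for Tapbp and -0.11 to 0.23 for Psmb8. It gave -0.19 (without CNP 4) to -0.020 (without PBS 2) for H2-D1 and -0.53 (without CNP 4) to -0.095 (without PBS 6) for Tap1, so the sign of these 2 held while the size moved by over 1.5 times.

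The number of correlated pairs, 1 of 21, was 12 with library totals as the only scaling and 2 for deviations from group means, and it ran from 0 to 2 over the sets without 1 library. The cause was not tested. Deviations from the sets of library number, an alternative added after seeing the data, gave 1 pair as well, but not the same values: the largest r was then that of Tap2 and Psmb8 (0.92), and H2-K1 and Tap2 had 0.50. Depth limits H2-Q4, H2-T23, Psmb9 and Tap1, with 13, 31, 110 and 153 counts over 10 libraries. For 94.2% of genes tested, the 95% interval lay within a 2-fold change either way.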
